A study of Mus musculus with 12 samples.

Results

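The cytosolic ribosomal protein genes encode the proteins of the ribosome that translates nuclear messages. They were taken by symbol (Rpl or Rps followed by a number and at most 1 letter a, x or l, plus Rplp0, Rplp1, Rplp2 and Rpsa), without -ps pseudogenes and predicted Gm genes. This gave 82 of the 41388 genes in the files, 50 of the large and 32 of the small subunit. Of these, 80 are protein-coding in GENCODE vM21, while Rps4l and Rpl6l are listed there as processed pseudogenes although their symbols carry no -ps.

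Levels were read from 12 bulk RNA-seq libraries of mouse brain cells. All mice were Bmal fl/fl on a C57BL\6 background, so that exons of Bmal1 (Arntl, which drives transcription in the circadian clock together with CLOCK) can be cut out by Cre, and all were gavaged with tamoxifen at 2 mg per mouse per day for 5 days at 2 months of age. Mice labelled aKO carried ALDH1L1-CreERT2, a tamoxifen-dependent Cre driven by an astrocyte gene, mice labelled WT did not, and brains were taken at 7 months. Magnetic beads against the astrocyte surface antigen ACSA-2 gave astrocyte libraries of 3 WT (animals 201, 202 and 265) and 5 aKO mice (203, 205, 208, 221 and 222). Cells that the beads left behind, called flowthrough, gave libraries of WT 201 and 202 and aKO 203 and 205, so 4 of the 8 animals gave both fractions. Flowthrough titles also hold a letter b of unstated meaning, which cannot be told apart from the fraction.

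Every ribosomal protein is present in about a single copy per ribosome, except the acidic stalk proteins P1 and P2, which sit in pairs on P0 and recruit the elongation factors. Their messages belong to the 5-prime TOP class, whose first bases are a C followed by a run of pyrimidines. Such messages are held back or released for translation through mTORC1 and LARP1. Astrocytes also translate some messages in their distant processes, and ribosomal protein messages are among those found outside cell bodies in brain cells.

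Library totals lay between 21816637 and 62655238 counts. Arntl read 3.50, 6.80 and 2.13 CPM in WT astrocytes, 5.05 to 25.01 CPM in aKO astrocytes and 1.57 to 4.39 CPM in flowthrough. These counts cover the whole gene, including exons outside the deleted part, so they do not check the genotype labels. The astrocyte library of animal 202 is WT by its title and knockout by its genotype field, and it was kept as WT. The 10 astrocyte markers summed to 0.287% to 1.42% of counts in astrocyte libraries and to 0.0198% to 0.494% in flowthrough, with none at 0 in either fraction, and 9 of the 10 were higher in astrocytes by edgeR. Flowthrough library aKO 205 stood apart from the others in the ribosomal protein genes with long coding sequences. Astrocyte library WT 265 had low values of Rpl3 and Rpl4, as described after the group comparisons.

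To show what the members have in common at their start sites, the 80 bases from 60 before to 20 after the annotated start are printed for 6 genes that the results below turn on. Capitals mark runs of 8 or more C or T that lie at least in part within 15 bases of the start, read on the gene's strand. Sequences are RefSeq's for GRCm38.p6.
Rps9: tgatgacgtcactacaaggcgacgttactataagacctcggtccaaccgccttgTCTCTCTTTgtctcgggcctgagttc
Rps27: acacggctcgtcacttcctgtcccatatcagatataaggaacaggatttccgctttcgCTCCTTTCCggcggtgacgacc
Rps27l: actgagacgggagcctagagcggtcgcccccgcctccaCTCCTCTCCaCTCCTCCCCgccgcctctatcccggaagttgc
Rplp2: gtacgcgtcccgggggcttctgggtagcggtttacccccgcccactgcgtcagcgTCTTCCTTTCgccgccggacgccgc
Rpl4: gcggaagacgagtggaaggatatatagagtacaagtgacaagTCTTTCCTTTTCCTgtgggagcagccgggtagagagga
Rpl39l: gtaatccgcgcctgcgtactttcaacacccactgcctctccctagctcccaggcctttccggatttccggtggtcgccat
The Rps9 window is chr7:3703981-3704060 (+), Rps27 chr3:90213629-90213708 (-), Rps27l chr9:66946026-66946105 (+, the first of its 2 listed starts), Rplp2 chr7:141447591-141447670 (+), Rpl4 chr9:64173327-64173406 (+) and Rpl39l chr16:10170168-10170247 (+). The first 5 carry a marked pyrimidine run and Rpl39l carries none. In Rps9, Rps27 and Rplp2 the run spans the annotated start, while in Rps27l and Rpl4 the runs end before it.

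RefSeq start windows, 250 bases before to 50 after the start, were matched for 60 of the 82 members and for 27025 genes in all. A run of 8 or more C or T within 15 bases of the start, on the gene's strand, stood in 26 of the 60 members (43.3%) and in 13.9% of all genes. On the opposite strand the run stood in 3 members (5.0%) and in 15.3% of all genes. CTTTCC or CTTTTC between 5 bases before and 10 after the start, on the gene's strand, was found in 10 members (16.7%) and in 1.16% of all genes. Of the motifs sought on both strands of the 300 bases, CCGGAAG and GCGGAAG, the core letters of ETS-family sites, were in 25 (41.7%) and 17 members (28.3%), against 9.93% and 6.53% of all genes; a window can hold both. AAGATGGCG, the core of a YY1 site, was in 3 members (5.0%) and 1.64% of all genes, and TATAAA in 6 of 60 members and 15.7% of all genes. CACGTG, the E-box letters that CLOCK and BMAL1 bind, stood in 6 of 60 members, namely Rpl13a, Rpl14, Rpl19, Rpl23, Rpl34 and Rps19, and in 8.09% of all genes. In aKO against WT astrocytes these 6 had log2 fold changes between -0.48 and -0.15, where 70 of 80 tested members lay below 0. In aKO against WT flowthrough they lay between 0.43 and 0.94, where 71 of 81 lay above 0. None of the 6 passed the test in either fraction. A match of letters describes the window and is not a binding site.

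The 82 genes took 2.58%, 3.92% and 4.76% of the counts in WT astrocytes 201, 202 and 265. They took 2.78%, 2.42%, 3.54%, 3.30% and 5.27% in aKO astrocytes 203, 205, 208, 221 and 222. In flowthrough they took 4.78% and 4.81% in WT 201 and 202, and 6.59% and 5.59% in aKO 203 and 205. Each of the 4 animals with both fractions had more ribosomal protein counts in flowthrough, by ratios of 1.85 (201), 1.23 (202), 2.37 (203) and 2.31 (205), whereas among the animals without a flowthrough library, astrocytes of aKO 222 lay inside the flowthrough range and those of WT 265 just under its lowest value. The means were 3.75% ± 1.10 (SD, n = 3) in WT and 3.46% ± 1.10 (SD, n = 5) in aKO astrocytes, and 4.80% ± 0.0230 (SD, n = 2) in WT and 6.09% ± 0.708 (SD, n = 2) in aKO flowthrough. Counting error alone gave 95% Wilson intervals of at most ±0.00914 percentage points. In bulk samples, fewer cells of a type and less RNA per cell cannot be told apart. Shares of small subunit genes were 0.976% to 2.31% in astrocytes and 2.04% to 2.91% in flowthrough, and those of large subunit genes 1.45% to 2.96% and 2.71% to 3.68%. Mitochondrially encoded genes, which share the same totals, took 11.1% to 36.5% in astrocytes and 4.81% to 12.9% in flowthrough. Ttr, the transthyretin gene of choroid plexus, took 1.197% to 16.99% and 8.17% to 32.1%. With both left out of the totals, all 4 animals still had higher member shares in flowthrough, but animal 202 had 5.93% in astrocytes and 6.10% in flowthrough. Astrocytes of aKO 222 (9.04%) then lay above every flowthrough library (6.10% to 8.92%), and those of WT 265 (7.46%) above both WT flowthrough libraries.

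**Figure D1:**
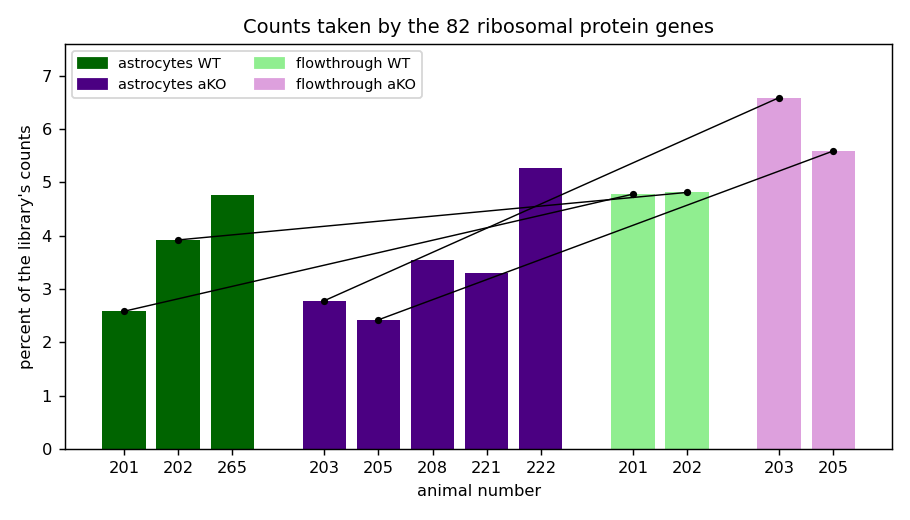
Percent of each library's counts (y axis, from 0) taken by the 82 ribosomal protein genes, with 1 bar per library, coloured by fraction and genotype and labelled by animal number. Lines join the fractions of the same animal: all 4 lines rise from astrocytes to flowthrough, while astrocytes WT 265 (4.76%) and aKO 222 (5.27%) lie near the flowthrough bars.

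Per base of gene, members differed far more among themselves than between libraries. RPKM divides counts by gene length as well as by the library total, which allows a rough comparison between genes. The deposited length was 4042 bases for Rpl18 and 2911 for Rpl22, against 679 and 474 in 1 annotated transcript of each. For Rpl14 it was 935 against 1009. A long deposited length lowers RPKM, so the order of members depends in part on the annotation. Over the 79 members with a median of at least 1 CPM in astrocytes, the median RPKM over the 8 astrocyte libraries ran from 2.94 to 2337, with a middle value of 222. The 5 highest were Rps27, of the small subunit (1596 to 4415 RPKM, median 2337), Rpl32 (median 1607), the stalk gene Rplp1 (median 1372), Rpl36 (median 1217) and Rps29 (median 1072). The 5 lowest among tested members were Rpl39l (median 0.151), Rpl3l (0.158), Rpl24 (2.94), Rpl6l (9.45) and Rps4l (27.3). The ranges over astrocyte libraries overlapped between neighbours among the 5 highest. The order was kept between libraries: Spearman's rho of RPKM over the 79 members lay between 0.791 and 0.995 for pairs of libraries, with a median of 0.964.

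Paralogs that tissues such as testis or muscle use in place of a ribosomal protein were near 0. Rpl10l, the autosomal copy of the X-linked Rpl10, had counts in 4 of 12 libraries and at most 0.0533 CPM, and entered no test. A count of 0 there allows up to 0.138 CPM. Rpl3l, the muscle copy of Rpl3, had 0 to 36 counts per library and a median of 0.158 RPKM in astrocytes, against 299 RPKM for Rpl3. Rpl39l had a median of 0.151 RPKM against 93.8 RPKM for Rpl39. Rps27l, a p53-inducible paralog, was different, with a median of 177 RPKM in astrocytes, against 2337 RPKM for Rps27. Rpl6l, the annotated pseudogene, had a median of 9.45 RPKM against 147 RPKM for Rpl6.

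Several low values belonged to genes that share sequence with others. More than 50% of the 50-base windows recurred in transcripts of other genes for 51 of the 82 members, with a median of 56.5%. The sources used here do not say how multiply matching reads were counted. Rpl24 had 81.7% of its windows in 10 other genes and 47.0% of its exon bases under the readthrough gene Gm28037, which is listed at 0 CPM in all 12 libraries. Rps2 (30.4 RPKM) had 79.0% of its windows in 71 other genes, Rpl13 (45.2 RPKM) 80.3% in 15 and Rpl23a (55.3 RPKM) 85.7% in 29, with 62.3% of its exon bases under other genes. Rps27, the highest, had 98.6% of its windows in 9 other genes. Across the 77 members with a coding length, Spearman's rho between median RPKM and the percent of windows shared was -0.27, and -0.49 with the percent of exon bases overlapped, as descriptions over genes that share libraries. The 248 -ps pseudogenes took 0.138% to 0.361% of counts, against 2.42% to 6.59% for the members.

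**Figure D2:**
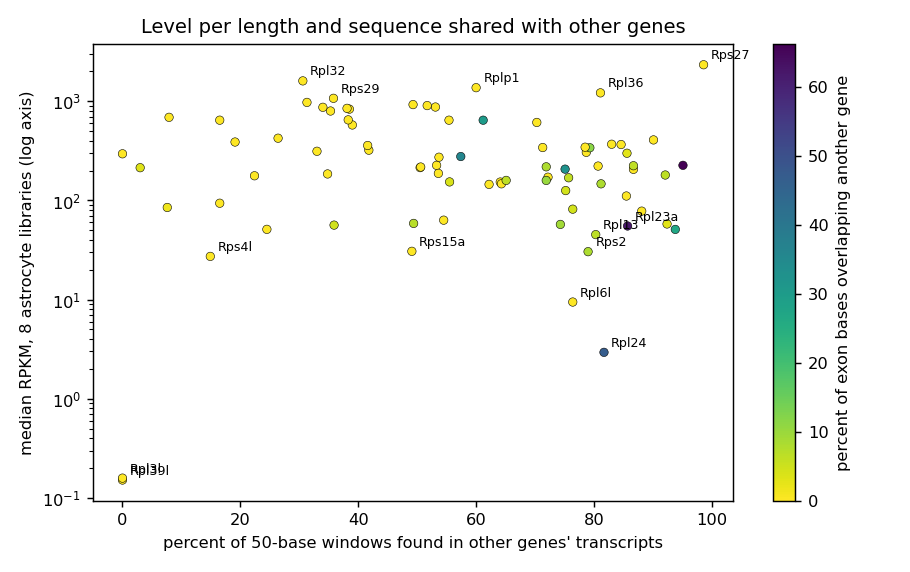
Median RPKM over 8 astrocyte libraries (log axis) of each member with a median above 0, against the percent of its 50-base windows found in other genes' transcripts, coloured by the percent of exon bases that overlap another gene. Rpl24 and Rpl6l lie low among the genes with over 70% of shared windows, Rpl3l and Rpl39l lie lowest with 0 shared windows, and Rps27 is highest with 98.6%.

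Astrocytes were compared with flowthrough to ask how members differ between the isolated cells and the rest. In the fit of all 12 libraries, 3 of 81 tested members were lower in astrocytes and 0 higher (edgeR, adjusted p under 0.05). Over all 20637 genes tested, 8.52% were lower and 8.52% higher, so the members' count lies under the background. By size they leaned 1 way: 79 of 81 had log2 fold changes below 0, with a median of -0.72, against a median of 0.07 over all genes. Unadjusted, 23 of 81 had an edgeR p under 0.05, as did 6602 of the 20637 genes, which is a larger share. The members past the threshold were Rpl39l, Rps9 and Rps27l, of which Rpl39l passed the count filter only through its flowthrough libraries.

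Rps9, a protein of the small subunit, read 643, 853 and 1362 CPM in WT astrocytes 201, 202 and 265. It read 649, 645, 886, 730 and 1121 CPM in aKO 203, 205, 208, 221 and 222. Its flowthrough values were 1768 and 1446 CPM in WT and 2211 and 2198 CPM in aKO. Every astrocyte library lay below every flowthrough library. The means of Rps9 were 861 ± 261 CPM over 8 astrocyte libraries and 1906 ± 369 CPM over 4 flowthrough libraries (± SD), and edgeR gave a log2 difference of -1.30 (SE 0.40; adjusted p = 0.0322). The gene lies on chromosome 7 from 3703993 to 3706901 in GRCm38, and 33.0% of its windows recur in 1 other gene.

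Rps27l read 157, 88.2 and 277 CPM in WT and 92.0, 133, 186, 95.4 and 197 CPM in aKO astrocytes. In flowthrough it read 316 and 178 CPM in WT and 352 and 447 CPM in aKO. The fractions overlapped, since astrocytes of WT 265 and of aKO 208 and 222 exceeded flowthrough of WT 202. Its log2 fold change was -1.24 (SE 0.41; edgeR adjusted p = 0.0493), and it passed in 13 of 25 alternative settings, against 18 for Rps9 and 24 for Rpl39l. Its parent Rps27 had -0.88 (SE 0.42; edgeR adjusted p = 0.164).

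Rpl39l (chromosome 16, 10170226 to 10174911) had 20, 6 and 6 counts in WT astrocytes and 0, 3, 0, 0 and 6 counts in aKO astrocytes. Flowthrough held 60 and 33 counts in WT and 47 and 34 counts in aKO. Every flowthrough library, at 0.863 to 1.35 CPM, lay above every astrocyte library, at most 0.319 CPM, and a count of 0 in the 3 astrocyte libraries without any allows up to 0.0862 to 0.138 CPM. The log2 fold change was -3.22 (SE 0.80; edgeR adjusted p = 0.0109), while its parent Rpl39 had -0.85 (SE 0.39; edgeR adjusted p = 0.143). None of the windows of Rpl39l recur in another gene. In the fit of the astrocyte libraries alone Rpl39l did not pass the count filter, so flowthrough brought it into the comparison. The filter thus favoured both its call and its separation by fraction.

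Next to the threshold stood Rpl10, which joins the large subunit in the last steps of its maturation. Rpl10 read 270 to 639 CPM in astrocytes and 725 to 960 CPM in flowthrough without overlap (log2 fold change -1.15, SE 0.39; edgeR adjusted p = 0.0551). Groups did not overlap for 4 of 81 members, Rpl10, Rpl15, Rpl39l and Rps9, all lower in astrocytes, with the limit given above for Rpl39l. Over all genes tested 4.51% lay lower without overlap. Rpl15, chosen after its values were seen, had a log2 fold change of -1.06 (SE 0.38; edgeR adjusted p = 0.0625).

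**Figure D3:**
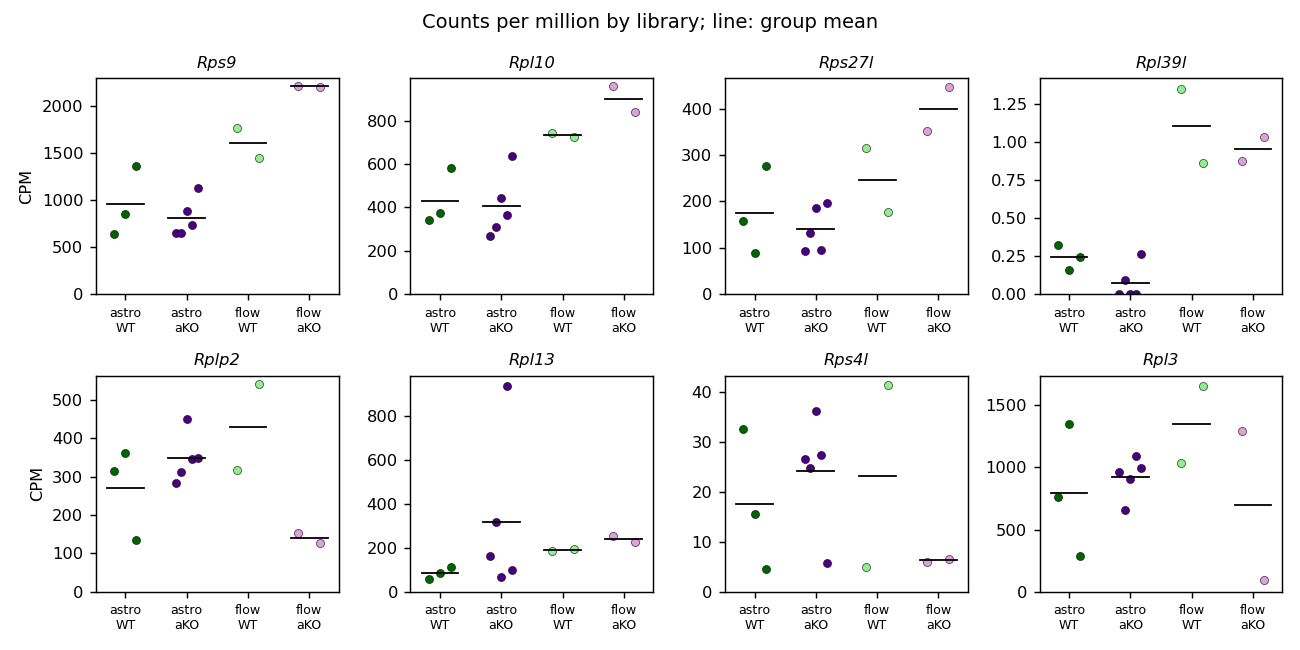
CPM (y axis from 0) of 8 members, 1 point per library in the order of animal numbers and a line at each group's mean, for WT and aKO astrocytes and flowthrough. Rps9, Rpl10 and Rpl39l are separated by fraction, Rps27l overlaps, Rplp2 is low in both aKO flowthrough libraries and in 1 WT astrocyte library, Rpl13 is high in 1 aKO astrocyte library, and Rps4l and Rpl3 vary within groups.

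The other named members did not pass between fractions in the fit of all 12 libraries. The stalk genes had log2 fold changes of -0.62 (SE 0.45) for Rplp0, -0.28 (SE 0.41) for Rplp1 and 0.11 (SE 0.37) for Rplp2. Rpsa, which is also a laminin receptor, had -0.01 (SE 0.47). Rps6, the substrate of S6 kinase, had -0.80 (SE 0.41). Rpl5 and Rpl11, which with 5S RNA bind the p53 ligase MDM2, had -0.62 (SE 0.39) and -0.79 (SE 0.40). Rps19, mutated in Diamond-Blackfan anaemia, had -0.93 (SE 0.43), Rpl22 -0.67 (SE 0.34) and Rpl38 -0.52 (SE 0.40). The pairs Rpl3 and Rpl3l had -0.33 (SE 0.55) and -0.62 (SE 0.87), and Rpl6 and Rpl6l -0.72 (SE 0.39) and -0.58 (SE 0.32). The edgeR adjusted p of these members lay between 0.147 (Rps19) and 0.988 (Rpsa). Some of these calls changed with the libraries or the animal term: of 25 alternative settings, Rps19, Rps27 and Rpl39 were lower in astrocytes in 5 each, Rps6 and Rpl11 in 4 each and Rpl22 and Rpl6l in 1 each, while Rpl10 and Rpl15 were lower in 9 each.

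The count of calls turned on which libraries were used and on the animal term. Without astrocyte libraries 222 and 265, and with no animal term, 45 of 81 members were lower, where 12.4% of 20333 genes were lower. These 2 had the highest member shares among astrocyte libraries (5.27% and 4.76%), so leaving them out lowers the astrocyte mean by construction. The 8 libraries of animals with both fractions hold neither of them. With the animal as a block in the 8 libraries of the 4 animals that gave both fractions, 47 of 81 members were lower and 0 higher, with a median log2 fold change of -1.21, where 13.6% of 20189 genes were lower. The same 8 libraries without the animal term gave 37 of 81, where 9.97% of genes were lower. Limma voom with the animal as a block over all 12 libraries gave 44 of 81, where 16.0% of genes were lower. Within animals, 50 of 81 members were lower in astrocytes than in flowthrough in all 4, against 14.5% of all genes. Leaving out astrocyte library 222 gave 25 lower members, where 2066 of 20485 genes were lower. Without WT 265 there were 10, where 2011 of 20575 genes were lower. Leaving out WT 201, WT 202, aKO 203 or aKO 221 astrocytes, or aKO 205 flowthrough, gave 1, and leaving out WT 201 flowthrough gave 0. The median remained between -0.90 and -0.58 when single libraries were left out.

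Other cells moved with the fraction. All 10 microglia markers were lower in astrocytes, with sums of 0.0334% to 0.0740% of counts against 0.582% to 1.09% in flowthrough. All 13 markers of other leukocytes (0.00909% to 0.0387% against 0.206% to 0.441%) and all 5 erythroid genes (0.0200% to 0.184% against 0.328% to 1.37%) were lower too. Of 8 cell cycle genes, 3 were lower in astrocytes. Oligodendrocyte markers were higher in astrocytes for 8 of 10 (0.369% to 2.31% against 0.0938% to 0.664%), neuron markers for 5 of 8 and precursor markers for 1 of 5. None of the 6 neuroblast, 8 endothelial, 6 mural, 7 ependymal and 6 choroid plexus markers passed. No listed marker was at 0 in every library of a fraction. The part of these cells in the members' difference was not tested.

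Gene length also moved with the fraction. Among other genes with a mean above 10 CPM, the median log2 fold change of astrocytes over flowthrough was -0.52 for the 242 genes with up to 300 coding bases and -0.41 for the 661 with 300 to 500. It was 0.17 for 1727 genes of 1200 to 1800 bases and 0.26 for 1045 above 3000 bases. Members have a median coding length of 454 bases (75 to 1257). In the same length classes their medians were -0.70 (10 members up to 300 bases) and -0.73 (38 members of 300 to 500), which is further below 0 than the other genes of that length. Those differences between members and other genes of the same length were not tested.

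Knockout was compared with WT in astrocytes to ask whether loss of Bmal1 changes the members. No member passed (0 of 80; 1 at an unadjusted p under 0.05; 0 by DESeq2), where 5 of 18950 genes, 0.0264%, passed in either direction. Over all genes, 299 of 18950 had an unadjusted edgeR p under 0.05. The members' median log2 fold change was -0.21, with 10 of 80 above 0, against 0.02 over all genes. Its direction rested on single libraries: it was 0.10 without WT 265, with 71 of 80 above 0, -0.47 without WT 201, -0.01 without aKO 205 and -0.60 without aKO 222. No member had all aKO astrocytes on 1 side of all WT astrocytes, which 1.07% of genes did upward and 0.343% downward.

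The smallest p in astrocytes was that of Rpl13, a large subunit protein (chromosome 8, 123102350 to 123105244). It read 57.2, 83.4 and 114 CPM in WT and 161, 316, 65.3, 937 and 99.0 CPM in aKO 203, 205, 208, 221 and 222. The groups overlapped, with aKO 208 and 222 inside the WT range and aKO 221 far above all other libraries, and flowthrough read 187 to 252 CPM. Its log2 fold change was 1.62 (SE 0.72; edgeR unadjusted p = 0.0401, adjusted p = 0.9997), and without aKO 221 it was 0.65. Its 4 -ps pseudogenes in the files summed to 2.01 to 3.86 CPM in WT astrocytes and to 25.1 CPM in aKO 221, so they were high in the same library. Snord68 and Mir7079, small RNA genes that overlap Rpl13 exons, are listed at 0 in all libraries.

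Next came Rpl3l (2.08, SE 1.09), Rps19 (-0.48, SE 0.55), Rpl18 (-0.40, SE 0.48) and Rps27l (-0.41, SE 0.49), each with an edgeR adjusted p of 0.9997. Rpl3l rested on 1, 2 and 11 counts in WT and 0 to 36 in aKO. Without WT 265, Rpl18 had 0.16 and Rps27l 0.26, turning their direction, and Rps19 had -0.02. The 11 members followed in every comparison (the 3 stalk genes, Rpsa, Rps6, Rpl10, Rpl5, Rpl11, Rps19, Rpl22 and Rpl38) lay between -0.48 and 0.28, with a median of -0.19 and 1 above 0, Rplp2.

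In flowthrough, 71 of 81 members had higher estimates in aKO than in WT, with a median log2 fold change of 0.74 against 0.07 over all genes. None passed (0 of 81; 1 at an unadjusted p under 0.05; 0 by DESeq2), and neither did any of the 20637 genes (0.0%), with 2 libraries a group. Over all genes, 817 of 20637 had an unadjusted edgeR p under 0.05. Both aKO libraries lay above both WT libraries for 56 of 81 members, where 12.4% of all genes did, and below them for 1, Rplp2, where 20.3% did. Of the 65 tested members with up to 700 coding bases 64 were above 0, with a median of 0.78, and of the 14 longer ones 6, with a median of -0.06. The cutoff of 700 bases was chosen after the values were seen. The split by length rested largely on aKO 205. Without that library, which leaves 1 aKO library, 77 of 81 members were above 0, with a median of 0.61. Members of 700 to 900 coding bases had median log2 deviations from their own medians of 0.43 and 0.50 in WT 201 and 202. In aKO 203 and 205 these were 0.98 and -0.41 (TMM-scaled CPM). Of the summed cell type markers, only those of other leukocytes and of microglia were split by genotype in these 4 libraries. The other marker sums overlapped, and the splits were not tested. The summed markers of other leukocytes took 0.304% and 0.206% of counts in WT and 0.441% and 0.337% in aKO, and those of microglia 1.09% and 0.927% in WT and 0.824% and 0.582% in aKO, both without overlap. Ttr took 19.8% and 8.17% in WT and 18.1% and 32.1% in aKO, and erythroid genes 0.328% and 0.822% in WT and 1.37% and 0.523% in aKO, both with overlap. Their part in the members' difference was not tested.

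Rplp2, the stalk gene, went the other way from most (chromosome 7, 141447370 to 141451585). It read 318 and 541 CPM in WT flowthrough and 153 and 127 CPM in aKO flowthrough. The 4 flowthrough values did not overlap by genotype, and the log2 fold change was -1.32 (SE 0.60; edgeR unadjusted p = 0.0442, adjusted p = 0.804). In astrocytes it read 314, 361 and 136 CPM in WT and 282 to 449 CPM in aKO, so WT 265 was as low as aKO flowthrough. Its partner Rplp1 read 736, 817, 954 and 568 CPM in flowthrough 201, 202, 203 and 205, and Rplp0 read 762, 905, 1053 and 138 CPM, so the 3 stalk genes did not share 1 order over these libraries.

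The other members of smallest p in flowthrough were Rps2 (1.13, SE 0.60), Rps4l (-1.51, SE 0.86), Rpl24 (0.99, SE 0.57) and Rps15a (1.04, SE 0.67), each with an edgeR adjusted p of 0.804. Rps4l, the annotated pseudogene, read 5.01 and 41.3 CPM in WT and 6.00 and 6.63 CPM in aKO flowthrough, so its difference rests on WT 202, without which it was 0.52. In astrocytes it read 32.5, 15.6 and 4.54 CPM in WT and 26.6, 24.9, 36.2, 27.3 and 5.74 CPM in aKO, low in WT 265 and aKO 222. Of the 11 followed members, 7 were above 0 in flowthrough, with a range of -1.32 (Rplp2) to 0.76 (Rps19).

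Set against each other, the genotype effects of the fractions (astrocytes minus flowthrough) differed by less than 0 for 71 of 81 members, with a median of -0.92 against -0.03 over all genes. It uses the same libraries as the comparisons above. No member passed (0 of 81, and 0 by DESeq2) and no gene did (0.0%). By edgeR, 1 member had an unadjusted p under 0.05, as did 499 of all 20637 genes. The smallest p was that of Rplp2, with a difference of 1.58 (SE 0.75; edgeR unadjusted p = 0.0492, adjusted p = 0.956). For Rps4l it was 1.88 (SE 1.06), and -0.16 without WT 202 flowthrough.

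**Figure D4:**
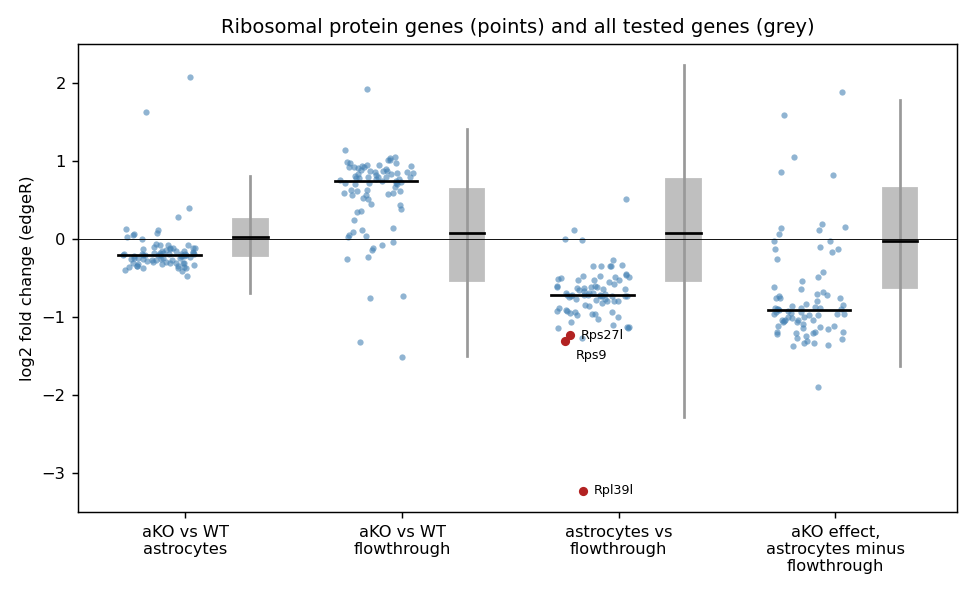
Log2 fold changes (edgeR) of the tested members, 1 point per gene, in the 4 comparisons, with members past an adjusted p of 0.05 in red and the members' median as a line; grey bars give the middle 50% of all tested genes, grey lines their 5th to 95th percentile and the black line their median. Only Rpl39l, Rps9 and Rps27l are red, and the members' medians are -0.21, 0.74, -0.72 and -0.92.

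Members rose and fell together over libraries. Between 2 members the Pearson correlation of log2 CPM over 12 libraries had a median of 0.83 over 3081 pairs, and 54.2% of pairs were above 0.8; all points share library totals. Among other genes above 0 in every library, the median was 0.18 over all pairs of the 15031 with a median of at least 1 CPM in astrocytes, with 4.91% of pairs above 0.8. Among the 414 of them with at least 234 CPM, the lower quartile of the members, it was 0.20, with 14.5% of pairs above 0.8. After each member's own median and the library's median were taken away, the remaining deviations showed which genes left the common course. Their SD over members was 0.907 in aKO 205 flowthrough, 0.504 in WT 265 astrocytes and 0.246 to 0.396 in the other 10 libraries. By SD over libraries the most variable were Rps4l (1.63), Rpl3 (1.30), Rpl13 (1.21), Rpl4 (1.20), Rplp2 (0.975), Rpsa (0.867) and Rplp0 (0.790).

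Rpl3 and Rpl4, of the large subunit core, have the longest coding sequences of the expressed members (1209 and 1257 bases). Rpl3 read 761, 1345 and 285 CPM in WT astrocytes and 658 to 1094 CPM in aKO astrocytes. In flowthrough it read 1035 and 1656 CPM in WT and 1292 and 97.7 CPM in aKO. Rpl4 read 846, 1347 and 218 CPM in WT astrocytes, 683 to 1111 CPM in aKO astrocytes, and 901, 1264, 930 and 158 CPM in flowthrough 201, 202, 203 and 205. WT 265 astrocytes and aKO 205 flowthrough were lowest for both genes. In aKO 205 flowthrough Rplp0 (138 CPM), Rpsa (117 CPM) and Rpl5 (81.8 CPM) were also lowest of all 12 libraries.

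In that library the 13 members with over 700 coding bases had a median deviation of -1.33 (log2), from -3.79 for Rpl3 to 0.30 for Rps2, and the 64 shorter ones 0.08. In WT 265 the medians were -0.12 and 0.02, with Rpl3 at -2.05 and Rpl4 at -2.34. Rplp2, with 345 coding bases, was at -1.49 in WT 265, and the annotated pseudogene Rps4l at -2.38. Spearman's rho of the deviation with coding length over 77 members was -0.39 in both of these libraries and -0.46 in aKO 222 astrocytes, against 0.62 in WT 202 flowthrough; it lay between -0.15 and 0.35 in the other 8. Other genes did not follow length in the same way over the whole range. Over 8019 other genes with a mean above 10 CPM, rho with coding length was 0.03 in WT 265, 0.12 in aKO 205 flowthrough and -0.17 in aKO 222 astrocytes, against -0.33 in WT 202 flowthrough and 0.52 in aKO 205 astrocytes. By class, those of 700 to 900 coding bases had a median deviation of -0.72 in aKO 205 flowthrough, and those of 900 to 1200 bases had -0.63 there and -0.45 in WT 265. Other genes of 1800 to 3000 bases had 0.04 and -0.08 in these libraries, and those above 3000 bases 0.24 and 0.07. These class medians keep the library's median and use TMM-scaled CPM, so their scale differs from that of the members' deviations above. On the class scale, members in aKO 205 flowthrough had 1.04 (38 of 300 to 500 bases) and -0.41 (10 of 700 to 900). The 1 member of 900 to 1200 bases had -1.62 and the 2 of 1200 to 1800 had -2.49. The cause was not tested.

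**Figure D5:**
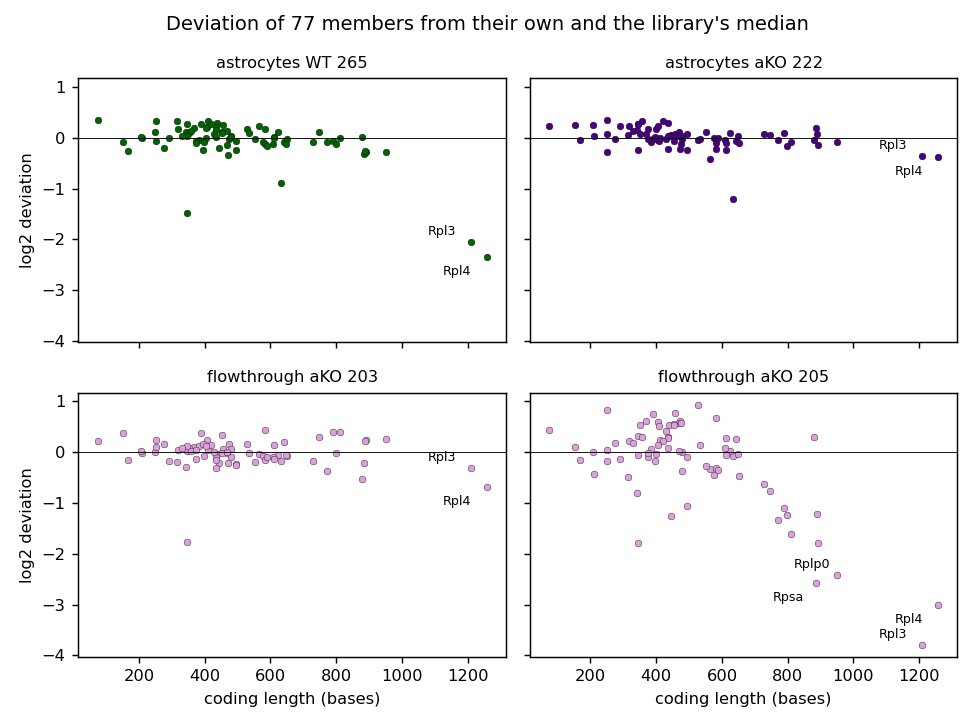
Log2 deviation of 77 members from their own median over libraries and from the library's median, against coding length in bases, in 4 libraries. In flowthrough aKO 205 members above 700 bases fall to between -3.79 and 0.30, and in astrocytes WT 265 Rpl3 and Rpl4 fall to -2.05 and -2.34, while flowthrough aKO 203 and astrocytes aKO 222 show no such drop.

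Genes around the ribosome were read from lists of the pathway. Between astrocytes and flowthrough, 0 of 8 ribosomal protein genes outside the symbol rule, such as Fau, passed (median log2 fold change -0.60), as did 0 of 21 elongation factors and other TOP genes (-0.11), 0 of 20 initiation factors (0.12) and 0 of 32 nuclear oxidative phosphorylation subunits (-0.66). Of 36 ribosome biogenesis genes 1 was lower, Fbl, the rRNA methyltransferase fibrillarin (means ± SD of 8.34 ± 3.14 CPM over 8 astrocyte and 22.1 ± 3.96 CPM over 4 flowthrough libraries; -1.70, SE 0.28; edgeR adjusted p = 0.000562). Of 18 genes of mTORC1 and its arm to the ribosome 2 were lower, the kinase Eef2k (-1.35, SE 0.29; edgeR adjusted p = 0.00415) and the mTORC1 subunit Rptor (-1.27, SE 0.27; edgeR adjusted p = 0.00418). Of 9 regulators of ribosomal protein gene transcription 1 was lower, Myc (-1.76, SE 0.39; edgeR adjusted p = 0.00566). Of 76 tested mitochondrial ribosomal protein genes 2 were lower, Mrpl14 and Mrpl23, and the list's median was -0.32. As shares these counts lie under the background of 8.52%, except for 2 of 18 and 1 of 9.

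In aKO against WT no gene of these lists passed in either fraction. Medians in astrocytes were -0.27 for the ribosomal protein genes outside the rule, -0.11 for elongation and TOP genes, -0.04 for biogenesis, 0.14 for initiation, 0.10 for mTORC1, 0.03 for the transcription list, -0.38 for oxidative phosphorylation and -0.12 for mitochondrial ribosomal proteins. In flowthrough they were 0.68, -0.12, -0.34, 0.11, 0.55, 0.51, 1.04 and 0.04 in the same order. The members' medians, -0.21 and 0.74, thus lay between those of the oxidative phosphorylation subunits and of most other lists. The lists share libraries and the differences between them were not tested.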

How the data were processed

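Per the file headers, each file the authors deposited gives for 41388 Ensembl genes a read count, CPM (count divided by the library total) and RPKM (CPM divided by gene length). The submitters' processing notes name featureCounts 1.4.6-p5 (Subread), STAR 2.5.1a, bcl2fastq and the build GRCm38. The sources used here do not state the annotation release, strand setting or treatment of multiply matching reads, so overlapping or antisense genes may not be told apart. Symbols came from GENCODE vM21, which names all but 1134 of the identifiers.

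Deposited counts were tested with edgeR 4.0.16 (R 4.3.3; quasi-likelihood test, robust, TMM, filterByExpr with a minimum count of 10 and a minimum total of 15), with two-sided p-values adjusted by Benjamini-Hochberg over all genes tested and a threshold of 0.05. Standard errors are the log2 fold change over the square root of F. The astrocyte comparison used 8 libraries, and the others a fit of 4 groups to all 12, with genotypes weighted equally between fractions. CPM printed here were computed from the deposited counts, and levels between genes use the deposited RPKM. The members' deviations used log2 CPM, less the member's own median and the library's median over members. Medians by class of coding length, and the rho of other genes, used log2(CPM + 0.5) with TMM scaling, less each gene's own median only. Scripts were tested on simulated counts.

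The members, gene lists, markers and tests were chosen with earlier results of these data known. Named were members past the threshold, the 5 smallest p in each genotype comparison, 11 fixed members, paralogs ending in l with their parents, the 5 highest and 5 lowest by RPKM, and up to 4 genes per list. Alternatives were other scalings, no count filter, DESeq2 1.42.0, limma 3.58.1 voom (sample weights), single libraries left out, 2 pairs of libraries left out, library 202 as aKO, members summed with -ps pseudogenes, all libraries in 1 fit and the animal as a block. Same-numbered libraries come from the same animal, and Pearson's r of their deviations from group means was 0.0823 (animal 201), 0.424 (202), 0.166 (203) and 0.404 (205). Each group's libraries come from different mice by their numbers. Intervals and floors cover counting error only. Some members are named without sequence. Results of 1 member are not reported here.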

Additional observations from a re-analysis of the deposited data

Results flagged for a closer look

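Rpl13 in aKO astrocyte library 221 read 937 CPM, where the other 4 aKO astrocyte libraries read 65.3 to 316 CPM. The gap to the next library was 0.712 of the range of the 5, just above Dixon's 95% critical value of 0.71. Such a gap arises by chance in about 1 of 20 groups, and 33 quantities were looked at in this group. None of the other quantities, among them the members' share of counts, passed this limit.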

How the results depend on the processing

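Calls between fractions depended on the libraries and on the animal term; the median between fractions was below 0 in every alternative run. The 3 members called lower became 12 with DESeq2, where 2274 of 20637 genes were lower, and 11 with voom sample weights, where 2024 were. They became 45 without astrocyte libraries 222 and 265 (2518 of 20333 genes) and 10 without 221 and 222 (1719 of 20332 genes). With library 202 as aKO 1 member was lower (1538 of 20637 genes). Leaving out single astrocyte libraries gave up to 25 members, reached without 222 (2066 of 20485 genes). With the animal as a replicate block 47 members were lower in the 8 paired libraries (13.6% of genes) and 44 with voom in 12 libraries (16.0%). In the 8 paired libraries without the animal term 37 were lower (9.97% of genes). Libraries 222 and 265 had the highest member shares among astrocytes, and the 8 paired libraries hold neither. The causes were not tested. No member was called higher between fractions, and none was called in either genotype comparison or in their difference, under any alternative run, with or without the block. Members' medians ranged from -1.21 to -0.53 between fractions, -0.64 to 0.10 for aKO astrocytes, 0.46 to 0.88 for aKO flowthrough and -1.35 to -0.56 for the difference. Library totals in place of TMM moved the median of all genes to 0.34 between fractions, 0.17 in astrocytes, -0.20 in flowthrough and 0.39 in the difference, and the members' median relative to it was -0.87, -0.28, 0.66 and -0.95, against -0.79, -0.23, 0.67 and -0.89 by TMM.

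Between fractions, estimates near 0 changed sign. Rpl3 was 0.16 with voom weights, 0.024 with the voom replicate block and 0.055 in the paired block fit. Rpl4 was 0.17 by library totals, 0.21 with voom weights, 0.19 without 222 and 265, 0.10 and 0.22 in these block fits and 0.081 in the paired libraries without the animal. Rpsa was 0.12 by library totals, 0.18 with voom weights, 0.069 with the voom block and 0.0067 with its -ps pseudogenes, and Rplp2 was -0.059 with 202 as aKO. With single libraries left out, Rpl3 ranged from -0.76 to 0.99, Rpl4 from -0.39 to 0.80, Rplp0 from -1.01 to 0.34, Rplp2 from -0.087 to 0.27, Rpsa from -0.39 to 0.81, Rpl5 from -0.95 to 0.077 and Rpl3l from -1.01 to 0.14. Likewise, in aKO astrocytes Rpl18 ranged from -0.63 to 0.16 and Rps27l from -0.71 to 0.26, and Rps4l from -2.39 to 0.52 in aKO flowthrough and from -0.16 to 2.76 in the difference.

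Without mitochondrially encoded genes and Ttr in the totals, the members' shares were 5.62% (WT) and 5.09% (aKO) in astrocytes and 6.23% and 8.89% in flowthrough. With -ps pseudogenes the WT flowthrough share was 5.04%. With 2 flowthrough libraries a group, precision is limited by their number, and where 1 is left out the other is assumed to vary like the remaining groups. Counts of at most 60 per library limit Rpl39l and Rpl3l.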
